A study of Mesocricetus auratus with 8 samples.

Results

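Actin isoforms are the transcripts of the genes that encode the subunit of the actin filament. They were examined in RNA-seq libraries of Syrian hamster satellite cells (SCs), which divide to repair muscle fibres, before and after cold exposure. The 5 isoforms were taken by gene symbol, out of 17590 genes with values: Acta1 (identifier 101822895), Actc1 (101824839), Acta2 (101844160), Actb (101844587) and Actg1 (101839375). All 5 had at least 2034 reads in every library and passed the filter on low counts. The SCs were wild type and came from the hindlimb muscles of sexually mature male Slc:Syrian hamsters. They were released with collagenase, enriched by preplating, which removes fast-adhering fibroblasts, and grown on Matrigel in growth medium. All dishes were held at 37°C for 48 h and then for 24 h at 37°C in growth medium with 100 mM HEPES, which buffers the pH. The control group (0 h, 4 libraries) was collected then, and the cold group (4 libraries) after a further 24 h at 4°C with no change of medium. Cold libraries were thus taken 24 h later than controls, so temperature and the added time in culture cannot be told apart here. The control titles name day 3, whereas another label lists 3, 4, 5 and 6 days at 37°C (control replicates 1 to 4, in that order).

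Mammalian actins are nearly identical proteins that differ mainly in where they are made. Acta1 encodes skeletal muscle α-actin, the main actin of the adult sarcomere, and Actc1 encodes cardiac α-actin, which embryonic and regenerating skeletal muscle also makes. Acta2 encodes smooth muscle α-actin, found in vascular smooth muscle and activated fibroblasts and also in cultured myoblasts. Actb and Actg1 encode β- and γ-actin, the cytoplasmic isoforms of essentially all cells. Many actin genes are transcribed by serum response factor (SRF) with its cofactors of the MRTF family, which bind monomeric actin, so the monomer pool and actin transcription are linked.

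Each library held between 16530747 and 18533801 reads assigned to genes. Levels are given in TPM, a read count scaled by transcript length and by library, which allows levels of different genes to be compared. The libraries numbered 1 and 2 stood apart from those numbered 3 and 4 in both groups, and same-numbered control and cold libraries deviated together. For this reason each comparison was also made between libraries of the same number. The study describes the libraries of each group as biological replicates, and what a number marks (an animal, an isolation or a day) is not stated beyond the days at 37°C that 1 label ties to the control numbers and that go against the titles. The SC and myoblast markers were all detected, and their summed level was 2461 to 3387 TPM in controls and 2192 to 2852 TPM in cold libraries, lower in 4 of 4 pairs. Myog, a transcription factor of myoblast differentiation in this list, had the largest drop, from a mean of 738 to 449 TPM. Of the 10 markers, 6 had a log2 fold change below 0 and 4 (Pax7, Myf5, Sdc4 and Megf10) above 0. Of these 10 markers 4 passed as lower and 1 as higher at an edgeR adjusted p with the replicate number as a block, against 4.07% and 1.26% of all genes, and of the fibroblast markers 0 passed. The 8 fibroblast markers with values summed to 1218 to 1747 TPM in controls and 1204 to 1695 TPM in cold libraries, so fibroblasts or cells that share these markers remained in the cultures. The study reports that its hamster SCs were of high purity by Pax7 and MyoD staining. Markers of pericytes and vascular smooth muscle summed to 84.5 to 115 and 81.3 to 107 TPM, with 3 of 8 under 1 TPM. Endothelial markers summed to at most 3.97 TPM, with 4 of 5 under 1 TPM on average. Immune markers summed to at most 55.7 TPM, of which Cd68, a lysosomal protein, made up most (23.3 to 52.0 TPM), while 3 of 5 were under 1 TPM and the leukocyte marker Ptprc reached at most 0.03 TPM.

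Actb was the most abundant isoform, with 9196, 9259, 10574 and 9611 TPM in control libraries 1 to 4 and 10141, 9570.2, 10351 and 10095 TPM in cold libraries 1 to 4. It held rank 3 or 4 among all genes in every library. The groups overlapped, and the highest value belonged to a control. Mean levels were 9660.2 ± 636 TPM (SD, n = 4) in controls and 10039 ± 332 TPM in the cold (exact permutation test, two-sided, p = 0.371). Cold values were 97.9% to 110% of the paired control values, higher in 3 of 4 pairs.

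Actg1 was expressed at 5730.2, 5455, 5609.95 and 5355 TPM in controls and at 6312, 5762, 6077 and 5987 TPM in the cold. Every cold library lay above every control library, although the lowest cold value was only just above the highest control value. The mean was 5538 ± 166 TPM in controls and 6034 ± 228 TPM in the cold (exact permutation test, two-sided, p = 0.0286, the smallest that 4 against 4 libraries allow), and cold values were 106% to 112% of the paired controls. Leaving out 1 library gave an exact permutation p of 0.0571 without any 1 control library or cold replicate 1, and 0.0286 without any other cold library, with no overlap in any of these. As these are bulk cultures, fewer cells making a transcript and less of it per cell cannot be told apart.

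Actc1 was expressed at 6552, 6731, 3505 and 3793 TPM in controls and at 3853, 4513, 2495 and 2559 TPM in the cold. The values split by replicate number as well as by group, since control replicates 3 and 4 lay below cold replicates 1 and 2. Controls 1 and 2 averaged 1.82 times controls 3 and 4, and in the cold the same ratio was 1.66. Means were 5145 ± 1733 TPM and 3355 ± 994 TPM, and the groups overlapped (exact permutation test, two-sided, p = 0.171). Within pairs the cold value was lower in 4 of 4, at 58.8%, 67.1%, 71.2% and 67.5% of the control. In rank, Actc1 stood between 8 and 38 in controls and between 22 and 76 in the cold.

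Acta1 was expressed at 831, 841, 445 and 459.6 TPM in controls and at 171, 226, 174 and 133 TPM in the cold. Controls 1 and 2 were again the highest, but even the lowest control lay above the highest cold library. Means were 644 ± 222 TPM in controls and 176 ± 38.2 TPM in the cold (exact permutation test, two-sided, p = 0.0286). The cold value was 20.6%, 26.9%, 39.2% and 29.0% of the paired control, and the cold mean was 27.3% of the control mean. The rank of Acta1 among all genes moved from between 177 and 318 in controls to between 657 and 1134 in the cold.

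Acta2 was expressed at 1950.4, 1779, 1125 and 1249 TPM in controls and at 1180.5, 1258, 961 and 987 TPM in the cold. Cold replicates 1 and 2 lay within the range of the controls, and cold replicates 3 and 4 lay below every control. The means were 1526 ± 401 TPM and 1097 ± 145 TPM (exact permutation test, two-sided, p = 0.143), and cold values were 60.5%, 70.7%, 85.4% and 79.0% of the paired controls.

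**Figure D1:**
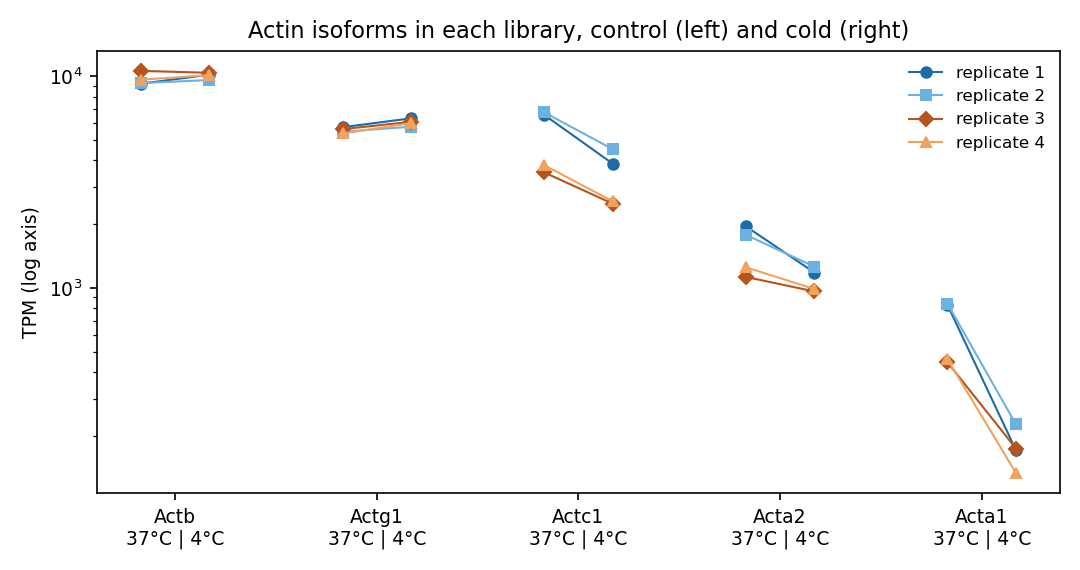
Level of each actin isoform in TPM (log axis) in the 4 control (left of each pair of columns) and 4 cold libraries (right), with a colour and marker for each replicate number and a line joining points of the same number. Acta1 is the isoform whose cold libraries (133 to 226 TPM) all lie below its controls (445 to 841 TPM), whereas Actb spans 9196 to 10574 TPM over both groups.

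In order of level, controls ran Actb, Actg1, Actc1, Acta2, Acta1, where Actg1 and Actc1 did not differ beyond their spread because all Actg1 values fell inside the range of Actc1. In the cold the order was the same, and no neighbouring isoforms overlapped. Without overlap between the groups, Acta1 was lower and Actg1 higher in the cold, and among the 12506 genes tested 2.41% did not overlap with cold lower and 2.27% with cold higher. Acta1, Actc1 and Acta2 were lower in all 4 pairs, as were 10.5% of all genes, and Actg1 was higher in all 4, as were 12.8%.

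**Figure D2:**
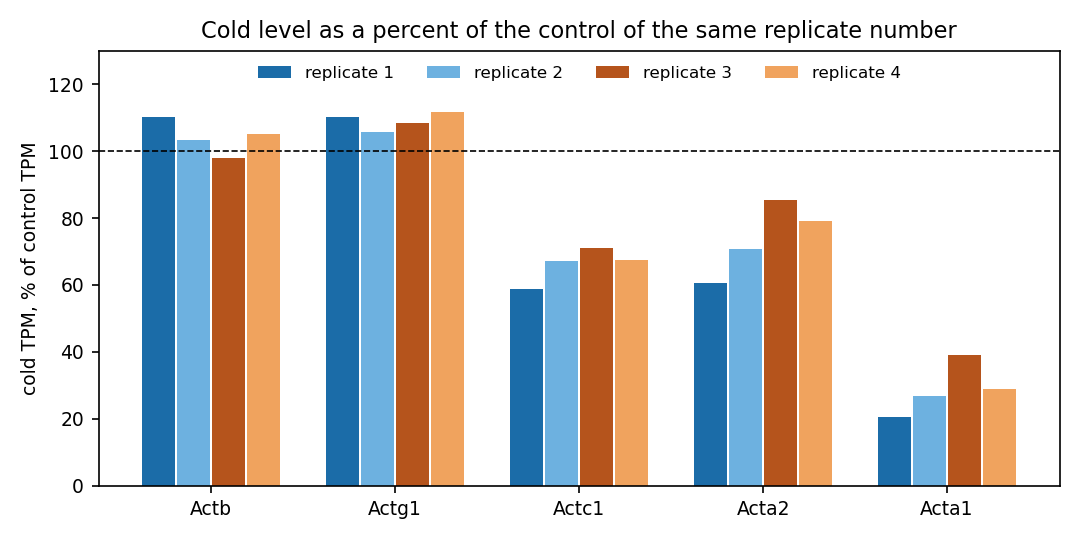
Cold TPM of each isoform as a percentage of its paired control library, with 1 bar for each of the 4 replicate numbers and a dashed line at 100%. Acta1 bars lie between 20.6% and 39.2%, Actc1 and Acta2 bars lie between 58.8% and 85.4%, and Actb and Actg1 bars lie between 97.9% and 112%.

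The comparison across all genes used the counts. In the edgeR quasi-likelihood fit, the log2 fold change (cold against control) of Acta1 was −1.90 (SE 0.27), with a Benjamini-Hochberg adjusted p of 0.0560 (unadjusted 5.43e-05), and 26 of the 12506 genes (0.208%) had a lower fold change. For Actc1 the log2 fold change was −0.64 (SE 0.29, edgeR adjusted p = 0.764) and for Acta2 it was −0.50 (SE 0.20, edgeR adjusted p = 0.676). Cytoplasmic isoforms had values near 0, at 0.04 (SE 0.05, edgeR adjusted p = 0.999) for Actb and 0.11 (SE 0.06, edgeR adjusted p = 0.853) for Actg1. Over all genes the median log2 fold change was 0.0071.

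None of the 5 isoforms (0 of 5) passed an adjusted p of 0.05 and a log2 fold change of 1 in this edgeR fit, which called 0.04% of genes lower and 0 genes higher (0.072% and 0 by adjusted p alone). At an unadjusted p under 0.05, Acta1 and Acta2 were lower and 0 of 5 higher, against 4.13% and 2.57% of all genes. DESeq2 called Acta1 (log2 fold change −1.90, adjusted p = 2.36e-06), against 0.472% of its genes called lower, or 0.924% lower and 0.0208% higher by adjusted p alone. Of the edgeR fits with 1 library left out and no block, only that without control replicate 3 called Acta1 (log2 fold change −2.06, edgeR adjusted p = 0.0220). With all 8 libraries and no block, edgeR also called it with library totals in place of TMM factors (adjusted p = 0.0458) and with no filter beyond 1 count (0.0286).

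With the replicate number as a block in the edgeR fit, 3 of 5 isoforms passed the adjusted p as lower, where 4.07% of all genes did, and 0 of 5 as higher, where 1.26% of all genes did. At an unadjusted p under 0.05 with the block, 3 of 5 were lower and 1 of 5, Actg1, was higher, against 9.76% and 8.48% of all genes. Acta1 had a log2 fold change of −1.85 (SE 0.09, edgeR adjusted p = 9.63e-11) and was the isoform that also passed a log2 fold change of 1, where 0.808% of all genes were called lower by both thresholds. Actc1 had −0.61 (SE 0.04, edgeR adjusted p = 8.13e-09) and Acta2 had −0.46 (SE 0.06, edgeR adjusted p = 2.68e-05). SEs were smaller with the block than without it for all 5 isoforms. For Actg1 the blocked log2 fold change was 0.11 (SE 0.03, edgeR adjusted p = 0.0655), and the adjusted p was 0.0499 when the block was combined with library totals in place of TMM factors and 0.0797 with RLE factors. Actb had an edgeR adjusted p of 0.532 with the block.

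Since replicates 1 and 2 stood apart, edgeR was also fitted within each set of replicates. In replicates 1 and 2 the log2 fold change was −2.13 (SE 0.08) for Acta1, −0.72 (SE 0.05) for Actc1 and −0.67 (SE 0.04) for Acta2. In replicates 3 and 4 it was −1.55 (SE 0.11), −0.51 (SE 0.06) and −0.27 (SE 0.07), and Acta2 did not pass in that set (edgeR adjusted p = 0.289). Whether these changes differed between the sets was not tested. Control replicates 1 and 2, which had the highest Acta1, Actc1 and Acta2, also had the highest summed SC and myoblast markers (3347 and 3387 TPM, against 2594 and 2461 TPM in controls 3 and 4). Among the controls they had the lowest summed fibroblast markers (1218 and 1242 TPM, against 1478 and 1747 TPM). The part of these differences in the actin values was not tested.

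The striated isoforms were next compared with each other, since a ratio within a library does not depend on the scaling between libraries. The ratio of Acta1 to Actc1 was 0.127, 0.125, 0.127 and 0.121 in the controls, although their levels differed between replicates. In the cold it was 0.0443, 0.0501, 0.0698 and 0.0521. The 4 control ratios were thus close together, and all 4 cold ratios lay below them. On the log2 scale the ratio differed by −1.23 (exact permutation test, two-sided, p = 0.0286, Benjamini-Hochberg over 10 isoform pairs 0.0714), with differences from −1.52 to −0.86 within pairs. Stated as a share, Acta1 made up 11.1% ± 0.211 (SD, n = 4) of the striated actin transcripts (Acta1 and Actc1 together) in controls and 5.12% ± 0.980 in the cold.

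All 10 isoform pairs were compared in this way. The 4 ratios that contain Acta1 did not overlap between groups and each had an exact permutation p of 0.0286 (0.0714 after adjustment over the 10 pairs), which is the smallest p the design allows before adjustment. Their log2 differences were −1.23 against Actc1, −1.38 against Acta2, −1.89 against Actb and −1.95 against Actg1. The ratio of Actc1 to Acta2 differed by −0.15 (exact permutation p = 0.286), with all 4 pairs below 0.

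Against Actb the log2 ratio of Actc1 differed by −0.66 (exact permutation p = 0.143) and that of Acta2 differed by −0.50 (exact permutation p = 0.143). Against Actg1 the differences were −0.72 for Actc1 (exact permutation p = 0.114) and −0.57 for Acta2 (exact permutation p = 0.0571). The ratio of Actb to Actg1 differed by −0.07 (exact permutation p = 0.286), with 3 of 4 pairs below 0. Adjusted over the 10 pairs, none of the 6 ratios without Acta1 fell below 0.114.

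**Figure D3:**
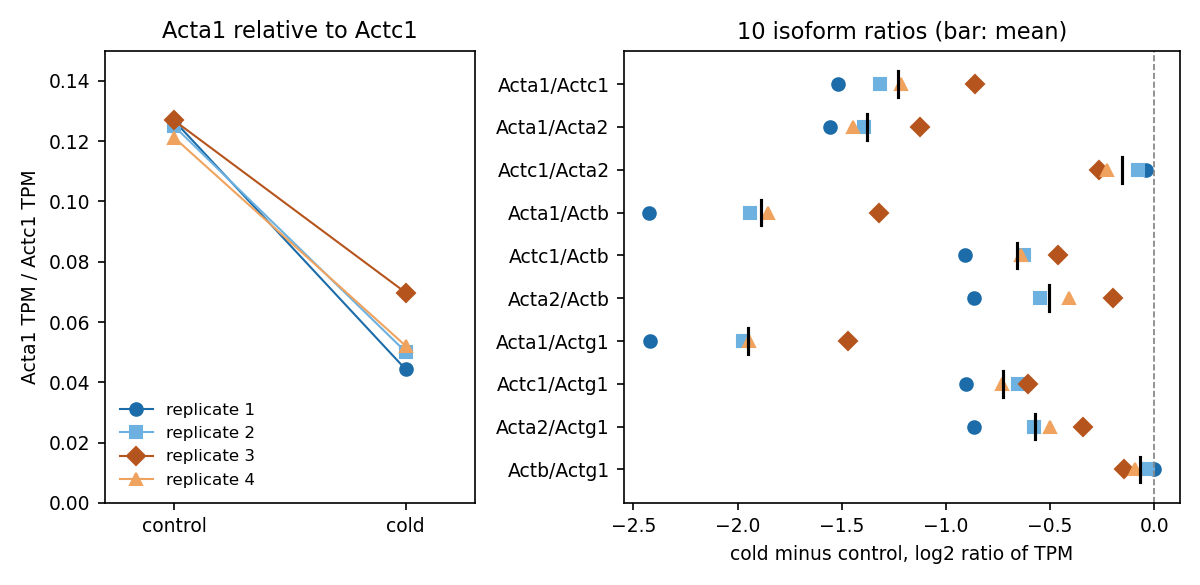
Left, the ratio of Acta1 to Actc1 (TPM) in each control and cold library, with a line joining the same replicate number. Right, cold minus control log2 ratio of TPM for the 10 isoform pairs, with 1 point per replicate number, a black bar at the mean and a dashed line at 0; the 4 ratios with Acta1 lie furthest below 0, with means from −1.95 to −1.23, and the ratios of Actc1 to Acta2 and of Actb to Actg1 lie nearest to 0.

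As shares of the 5 isoforms' summed TPM, the cytoplasmic pair Actb and Actg1 made up 68.0% ± 7.77 in controls and 77.8% ± 4.76 in the cold, and the striated pair 25.3% ± 6.58 and 16.9% ± 4.27 (SD, n = 4 each). The cytoplasmic share was higher and the striated share lower in 4 of 4 pairs, with overlap between the groups. Acta1 alone went from a share of 2.81% ± 0.749 to 0.848% ± 0.162, and Actg1 from 24.7% ± 1.85 to 29.2% ± 1.55, both without overlap. Together the 5 isoforms took 2.25% ± 0.193 of each control library's TPM and 2.07% ± 0.0932 of each cold library's, lower in 4 of 4 pairs. Shares sum to 100%, so a lower share of 1 isoform raises the others.

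**Figure D4:**
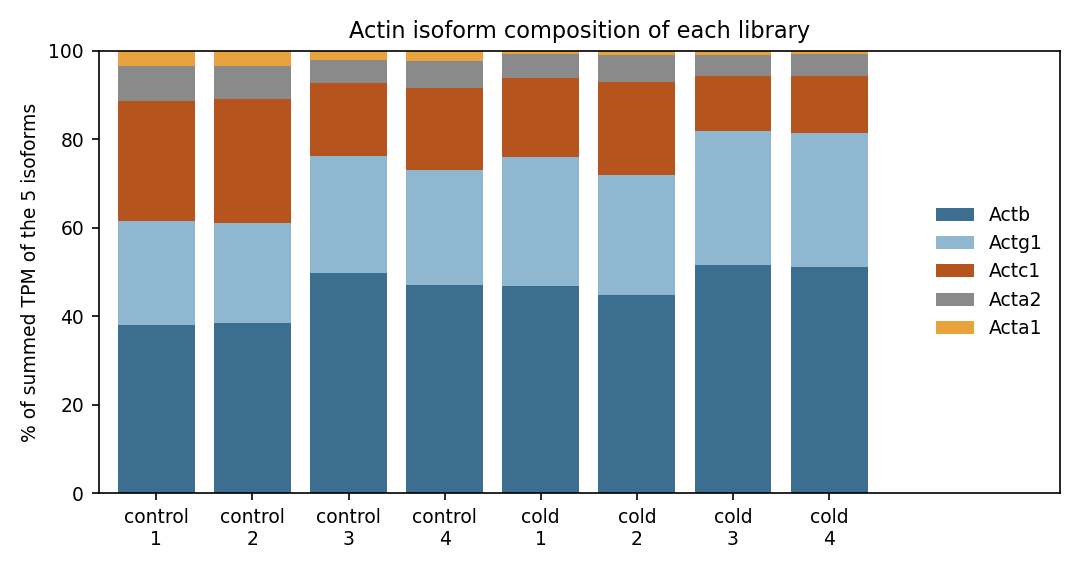
Share of each isoform in the summed TPM of the 5 actin isoforms (percent, stacked bars) for each of the 8 libraries, controls 1 to 4 and cold 1 to 4. The striated isoforms Acta1 and Actc1 take 18.6% to 31.5% in controls and 13.3% to 22.2% in cold libraries.

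The counts of Acta1, Actc1 and Acta2 were whole numbers in all 8 libraries. Those of Actb and Actg1 carried decimals in the same 5 libraries, and in 5 of 5 the pair summed to a whole number (within 0.005 counts). Some reads were thus divided between Actb and Actg1, and the split between these genes is an estimate. Decimals in any library were seen for 5.21% of genes.

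Among 8 lists of genes that handle actin, the partners of the striated thin filament had the median furthest from 0. Of 16 troponin, tropomyosin and other thin filament genes tested, 15 had a log2 fold change below 0, with a median of −0.71 against 0.0071 over all genes. Of the 12506 genes tested, 5894 were below 0. In the edgeR fit with the replicate block 13 passed as lower (4.07% of all genes did) and 1 as higher (1.26% did), Tpm3 (log2 fold change 0.15, edgeR adjusted p = 0.0189, and 0.306 without the block), a tropomyosin that non-muscle cells also make. Without the block, Neb, the giant protein nebulin that runs along the thin filament, was the 1 gene that passed the adjusted p (−0.53, edgeR adjusted p = 0.0454), and 0 passed with a log2 fold change of 1. At an unadjusted p under 0.05 that edgeR fit had 10 lower and 1 higher, against 4.13% and 2.57% of all genes. DESeq2 had 6 lower and 1 higher at an adjusted p, against 0.924% and 0.0208%, with 2 past a log2 fold change of 1. Tpm3 and Neb were named here after their values were seen.

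Tnnt1, slow troponin T, had 15.95 ± 9.55 TPM in controls and 3.53 ± 1.48 TPM in the cold, a log2 fold change of −2.20. Lmod3, a leiomodin that nucleates actin filaments in muscle, had 22.0 ± 6.16 and 7.72 ± 1.59 TPM (−1.54), and Actn2, the Z-disc crosslinker α-actinin 2, had 120.5 ± 51.3 and 51.9 ± 15.8 TPM (−1.25). In each of these 3 genes, named for the largest fold changes of the list, no cold library reached a control library, as in 2.41% of all genes. Of the abundant troponins, Tnni1 had 727 ± 148 and 456 ± 42.6 TPM (−0.69), without overlap, and Tnnt3 had 737 ± 265 and 471 ± 146 TPM (−0.67), with overlap. EdgeR adjusted p without the block was 0.0560 for Lmod3 and 0.224 to 0.766 for the other 4, and with the block all 5 passed as lower.

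Among regulators of SRF and MRTF activity, 10 of 17 genes were below 0 (5894 of 12506 over all genes) and the median was −0.06. With the block Abra, Ablim3 and Fhl1 passed as lower and Rock2, a kinase downstream of RhoA, as higher (0.15, edgeR adjusted p = 0.0497, and 0.8285 without the block; named here after its value was seen), 3 of 17 and 1 of 17 against 4.07% and 1.26% of all genes. DESeq2 passed Abra and Ablim3 as lower at an adjusted p (2 of 17, against 0.924%). At an unadjusted p under 0.05, edgeR had 3 lower and 0 higher without the block, against 4.13% and 2.57% of all genes. With the block it had 5 lower and 2 higher, against 9.76% and 8.48%. Abra, a muscle protein that binds actin and promotes MRTF activity, had 4.78, 3.48, 1.47 and 3.57 TPM in controls and 0.66, 0.80, 0.45 and 1.04 TPM in the cold (log2 fold change −2.19). All cold values of Abra were below all control values, and its edgeR adjusted p without the block was 0.112. Ablim3, an actin-binding LIM protein, had 14.1 ± 4.01 and 7.82 ± 1.01 TPM (−0.90), and Fhl1, a LIM-only muscle protein, had 316 ± 67.0 and 271 ± 32.2 TPM (−0.24, and −0.10 without control replicate 1). Without the block the edgeR adjusted p was 0.276 for Ablim3 and 0.958 for Fhl1. Rhoa, the GTPase that drives actin assembly, had 514 ± 20.3 and 522 ± 5.98 TPM, with a log2 fold change of 0.01. The study picked Abra, Lmod3 and Tnnt1, as well as Acta1 and Myh3, from these libraries as genes lower after cold, so their values are not independent evidence of a direction, for Acta1 or for the lists.

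Proteins that bind monomeric actin or turn filaments over had a median of −0.02, with 10 of 18 below 0 (5894 of 12506 over all genes). Tmsb10, a thymosin that sequesters monomers and is among the most abundant transcripts here, had 13336 ± 3837 TPM in controls and 10405 ± 1142 TPM in the cold (−0.36, edgeR adjusted p 0.880 without the block and 0.0137 with it), and was lower in 3 of 4 pairs. Its log2 fold change was −0.22 without control replicate 2, −0.57 in replicates 1 and 2 and −0.07 in replicates 3 and 4. Its control libraries 1 and 2 (16176 and 16967 TPM) were high, and control 4 (9105 TPM) was the lowest of all 8. Tmsb4x, the other abundant thymosin, had 11739 ± 406 and 11689 ± 985 TPM. Cap2, a muscle-enriched protein that recycles monomers, passed as lower with the block (57.7 ± 8.87 and 50.05 ± 7.32 TPM, −0.23). Without the block its edgeR adjusted p was 0.941, and its log2 fold change was −0.13 without control replicate 1 or without cold replicate 4. Limk1, a kinase that inactivates cofilin, had −0.19 and did not pass.

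The folding and maturation list had 14 of 16 genes above 0 and 2 below (5894 of 12506 over all genes were below), with a median of 0.03. In edgeR 0 of 16 passed with or without the block, at an adjusted or an unadjusted p under 0.05, and in DESeq2 0 of 16 passed. The named members were Cct6a (0.07), Tcp1 (0.06) and Cct8 (0.03), subunits of the chaperonin that folds actin, and Vbp1 (−0.06), a prefoldin subunit. Of the filament nucleators and elongators, 20 of 25 were above 0 and 5 below (5894 of 12506 over all genes were below), with a median of 0.06. The elongation factor Enah, at 21.1 ± 2.62 and 18.1 ± 1.67 TPM, passed as lower with the block (−0.26, edgeR adjusted p without the block 0.767), while Wasf1 (0.27, and 0.13 without control replicate 1), a WAVE subunit, and the formin Diaph3 (0.15) did not pass. At an unadjusted p under 0.05, 7 of 25 were higher and 1 lower in edgeR with the block, against 8.48% and 9.76% of all genes, and 1 was higher and 0 lower without it, against 2.57% and 4.13%. Arpc1b (0.01) and Arpc2 (0.08), subunits of the branching Arp2/3 complex, did not pass, and counts of Arpc1b held decimals in all 8 libraries.

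Non-muscle capping, crosslinking and adhesion genes had a median of 0.03, with 13 of 17 above 0 and 4 below (5894 of 12506 over all genes were below). None (0 of 17) passed an adjusted p in edgeR or DESeq2, and at an unadjusted p under 0.05 edgeR had 0 without the block and 5 higher with it, where 8.48% of all genes were higher. Named members ranged from −0.06 for Capzb, a capping subunit, to 0.12 for the capping protein Tmod3, with Eps8 at 0.10, Add3 at 0.10 and the crosslinker Flna at 0.03. The smooth muscle contractile list was evenly split, 6 of 12 on each side, with a median of 0.01. Its named members were Synpo2 (−0.23, and −0.15 without control replicate 1), which passed as lower with the block and not without it (edgeR adjusted p = 0.940), Smtn (0.11), Cald1 (0.08), Cnn2 (−0.03) and Csrp1 (−0.00028). Acta2 was thus lower in 4 of 4 pairs beside a list of smooth muscle genes with as many members above 0 as below it.

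The other actins and actin-related proteins had a median of −0.01 and 0 of 11 passed an adjusted p in edgeR or DESeq2, with 1 higher at an unadjusted p under 0.05 in edgeR without the block (2.57% of all genes) and with it (8.48%). Actg2, the enteric smooth muscle γ-actin, was low, at 5.10 ± 0.928 TPM in controls and 4.39 ± 0.535 TPM in the cold (log2 fold change −0.24). Actl6a, a subunit of chromatin remodelers, was higher in 4 of 4 pairs, as were 12.8% of all genes, and without overlap, as were 2.27% (65.7 ± 1.96 and 71.5 ± 2.68 TPM, 0.10). Its edgeR adjusted p was 0.728 without the block and 0.190 with it. Actr3 (0.04) and Actr2 (0.02), the actin-related subunits of Arp2/3, and Actr3b (0.21, with 0.038 to 0.34 when 1 library was left out) did not pass. Actbl2, another actin gene, was at 0 to 0.55 TPM and was not tested.

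**Figure D5:**
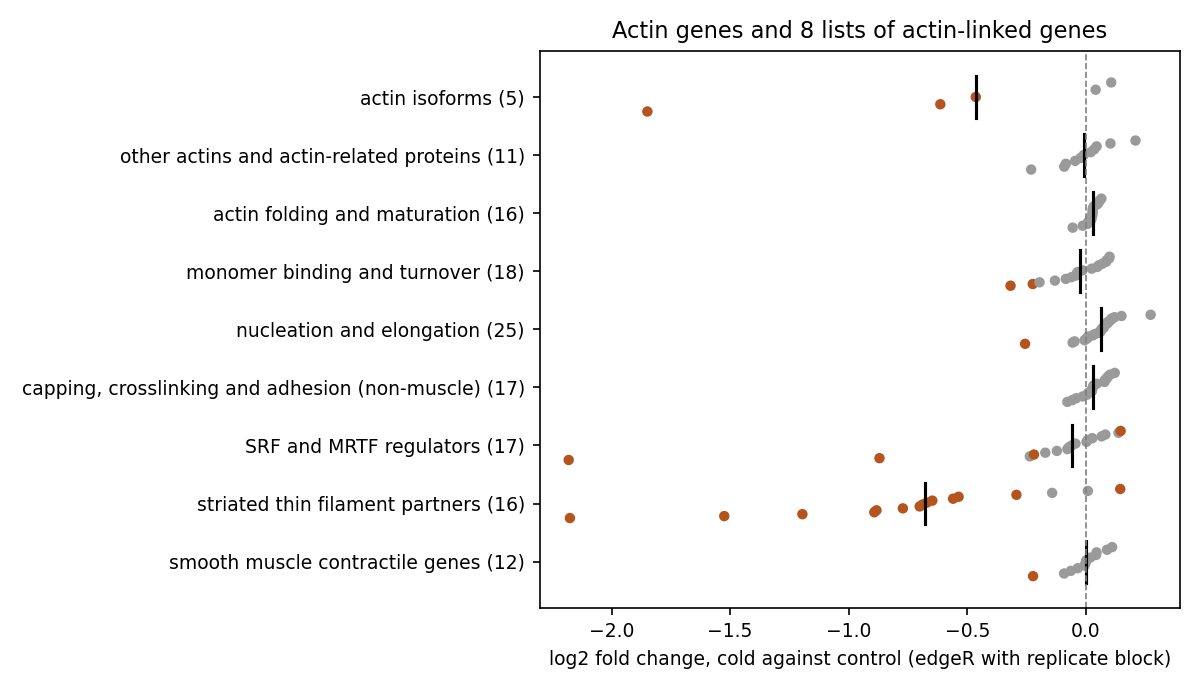
Log2 fold change (cold against control, edgeR with the replicate block) of each tested gene in the 5 actin isoforms and 8 lists of genes that handle actin, with orange points for genes with an adjusted p under 0.05, grey points for the others, and a black bar at the median of each row. The striated thin filament partners, with a median of −0.68 in this fit, lie to the left of the other 7 lists, whose medians run from −0.06 to 0.07.

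Genes whose level followed each isoform most closely over the 8 libraries were listed by Pearson's r of log2 TPM among 7252 genes, as a description. These libraries share their group and replicate structure, so r reflects both. The genes nearest to Acta1 were Lmod3 (r = 0.989), Myh3 (0.989), the embryonic myosin heavy chain, and Rnf187 (0.989). Nearest to Actc1 were Myog (0.994), the transcription factor of myoblast differentiation, Sbk1 (0.992) and Myh1 (0.991), a fast myosin heavy chain. Counts of Myh3 and Myh1 held decimals in 8 and 7 libraries, so reads shared with similar genes make them uncertain.

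Acta2 was followed most closely by Dclk1 (0.993), a microtubule-associated kinase, Igfbp3 (0.992), which binds insulin-like growth factors, and Pdlim4 (0.990), an actin-associated LIM protein. The genes nearest to Actb were Tln2 (0.991), a talin that links integrins to actin, B4galt5 (0.967) and Mkrn1 (0.958). Actg1 was nearest to Ssna1 (0.975), Fzr1 (0.956) and Mzt2b (0.947). The 15 genes listed were all different, but each list was cut to its closest genes. The share of genes with r over 0.9 was 1.10% for Acta1, 1.96% for Actc1, 1.93% for Acta2, 0.924% for Actb and 0.110% for Actg1. Among the isoforms, r was 0.972 for Actc1 and Acta2, 0.862 for Acta1 and Acta2 and 0.825 for Acta1 and Actc1. It was 0.490 for Actb and Actg1, and below 0 between either of these and the other isoforms. Different short lists thus do not show that the isoforms varied separately. Lmod3 and Myh3 had log2 fold changes of −1.54 and −1.45, less far below 0 than Acta1 (−1.90), while Rnf187 had −0.18.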

How the data were processed

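Total RNA of 8 SC cultures was made into mRNA libraries and read as paired ends of 150 bases on a DNBSEQ-G400. The authors deposited 1 table of the whole series with, for each library, expected counts (not normalized, not all whole), TPM as computed by the authors, and a normalized count, a signal that was not tested. HISAT and HISAT2 are named in the submitters' processing notes; the counting program and genome build are not given in the sources used here. Fold changes and p-values of the authors' own comparison, where listed, were not used. All 17590 gene identifiers with values were found in RefSeq (assembly BCM_Maur_2.0, used for names alone).

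Expected counts were rounded and tested in edgeR 4.0.16 (R 4.3.3) with filterByExpr, TMM factors and the quasi-likelihood test, cold against control, with Benjamini-Hochberg adjustment over 12506 genes. Genes were called at an adjusted p under 0.05 and a log2 fold change of at least 1. SEs were taken from the fold change and the F statistic. Alternatives were DESeq2 1.42.0, limma 3.58.1 on log2(TPM + 0.1) or log2(TPM + 1), library totals, other filters, a replicate block, replicates 1 and 2 or 3 and 4 alone, and leaving out each library. The block combined with other scalings or with a library left out, and TPM tests with a library left out, were added after seeing the data. Single TPM values and log2 ratios were compared in exact two-sided permutation tests over 70 arrangements, with a smallest p of 0.0286.

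Deviations from group means correlated at 0.61 to 0.66 across genes for control and cold samples that share a number, at 0.43 to 0.59 between different numbers within 1 and 2 or within 3 and 4, and at −0.61 to −0.55 otherwise. The numbers were taken to pair the libraries on this evidence alone. On simulated counts with 200 of 12439 genes changed, 196 were recovered with 0 false calls, with or without the block. The simulated counts held no effect of the replicate number, so they could not test the block. Their changes were larger than those of the isoforms over all 8 libraries, so recovery of smaller changes was not tested.

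The isoforms and gene lists were chosen with earlier results of these data known. From each list the 3 genes with the largest absolute log2 fold change and the 2 with the highest mean TPM are named, and for each isoform the 3 genes of at least 10 TPM with the highest r of log2(TPM + 0.1). The 8 lists are described by counts and medians. The 5 marker lists cover SCs and myoblasts, fibroblasts, pericytes and vascular smooth muscle, endothelium and immune cells. The reads carry no molecular identifiers.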

Additional observations from a re-analysis of the deposited data

How the results depend on the processing

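The log2 fold changes of all 5 isoforms kept their sign in 28 of 28 alternatives each, and the 10 ratios in 12 of 12. The number of genes called lower (5) and higher (0) in edgeR was 101 and 5 with the replicate block, 175 and 8 in replicates 1 and 2, 27 and 1 in replicates 3 and 4, and 0 to 33 and 0 to 1 with 1 library left out (33 without control replicate 3). Genes called lower numbered 8 with library totals, 68 with DESeq2, 15 with no filter, 3 with a mean of 10 counts, 3 with limma at either pseudocount and 9 with no fold threshold. Acta1, at an edgeR adjusted p of 0.0560, passed both thresholds with library totals (−1.89), DESeq2 (−1.90), no filter (−1.907), the replicate block (−1.85, or −1.845 with library totals and −1.85 with RLE factors), replicates 1 and 2 (−2.13) and replicates 3 and 4 (−1.55). With 1 library left out it was −2.06 to −1.74 (edgeR adjusted p 0.0220 to 0.249), and with the block it was −1.69, −1.82, −2.01 and −1.88 without a library of pair 1, 2, 3 and 4. The block thus turned the call on Acta1 and, by adjusted p alone, those on Actc1 and Acta2. In TPM with 1 library left out, the difference was −534 to −402 for Acta1 and 404 to 588 for Actg1 (exact permutation p 0.0286 to 0.0571 for each, 0.0571 for Acta1 without cold replicate 4 and for Actg1 without any 1 control or cold replicate 1), and the log2 ratio of Acta2 to Actg1 was −0.71 to −0.46 (0.0286 without control replicate 3). By expected counts in place of TPM, the share of Acta2 was 5.46% in controls and 4.19% in the cold, and that of Actg1 28.6% and 32.8%. The cause of these shifts was not tested. Some genes changed sign, most of them near 0. In replicates 3 and 4 these were Actg2 (0.0248, against −0.24 over all 8 libraries), Actr2 (−0.0502), Actr3 (−0.00361), Cald1 (−0.0194), Cct8 (−0.0236), Flna (−0.0208), Rhoa (−0.0172) and Tmsb4x (0.0201), and in replicates 1 and 2 Arpc1b (−0.0828). Csrp1 was 0.00415 with library totals and 0.0153 with limma at either pseudocount. With 1 library left out the ranges were −0.000517 to 0.0459 for Actr2, −0.059 to 0.065 for Arpc1b, −0.0085 to 0.058 for Cct8, −0.077 to 0.0079 for Cnn2, −0.11 to 0.12 for Csrp1, −0.0084 to 0.046 for Flna, −0.011 to 0.020 for Rhoa and −0.045 to 0.033 for Tmsb4x. Other genes that passed no adjusted p in fits to all 8 libraries kept their sign with 1 library left out but moved by over 1.5 times from the reported value: 0.0189 to 0.0600 for Actb, −0.35 to −0.15 for Actg2, 0.0054 to 0.0584 for Actr3, 0.0377 to 0.34 for Actr3b, 0.0246 to 0.18 for Cald1, 0.0221 to 0.101 for Cct6a, 0.0690 to 0.14 for Eps8, −0.27 to −0.12 for Limk1, 0.0720 to 0.14 for Smtn, 0.0096 to 0.0959 for Tcp1, −0.0925 to −0.0238 for Vbp1 and 0.13 to 0.37 for Wasf1. The lowest count of an isoform was 2034, so counting error was small beside the spread between libraries.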
